A study of Mus musculus with 8 samples.

Results

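The natriuretic peptide system was described through 10 genes chosen by name out of the 33249 genes of the deposited table, namely Nppa, Nppb, Nppc, Npr1, Npr2, Npr3, Corin, Furin, Mme and Prkg1. All 10 were found, and 8 of them had a mean level of at least 0.5 FPKM, a measure scaled to gene length and library size, which was the minimum set for testing. Mme and Nppc fell below that minimum. RNA was measured in 8 libraries of mouse myocardium, 2 in each of 4 groups, and which part of the heart was taken is not given in the sources used here. All mice carried the floxed allele Piezo1tm2.1Apat. Mice of the groups labelled CKO-Sham and CKO-MI (Piezo1 Cko) also carried Tg(Myh6-cre/Esr1*)1Jmk, in which the cardiomyocyte promoter Myh6 drives a Cre recombinase fused to parts of the estrogen receptor and activated by tamoxifen, given at 4 weeks of age. The groups labelled fl/fl-Sham and fl/fl-MI (Piezo1 fl/fl) were littermates without the transgene, and whether they received tamoxifen is not stated. At 8 weeks of age the left anterior descending coronary artery was tied permanently to cause myocardial infarction (MI), or a sham operation was done, and the MI libraries were labelled day 42. The study asked how cardiomyocyte Piezo1, a stretch-gated cation channel, shapes the heart after MI.

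Natriuretic peptides are hormones that the heart releases when its walls are stretched, and they lower blood volume and pressure. Atrial natriuretic peptide (Nppa) and B-type natriuretic peptide (Nppb) are cut from precursors by proteases such as corin and furin and act on the receptor guanylyl cyclase NPR-A (Npr1), which makes cyclic GMP. C-type natriuretic peptide (Nppc) acts on NPR-B (Npr2), NPR-C (Npr3) removes all of these peptides from the circulation, and neprilysin (Mme) degrades them. In the healthy adult heart Nppa is made mainly by the atria, and the ventricles express it again under load.

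The libraries held 73821747 to 88117573 counts, and low counts piled up at multiples of 4, so that they stand for about 18455437 to 22029393 read pairs at 4 counts per pair. Between 43.1% and 46.4% of sham counts, but 19.9% to 24.2% of MI counts, came from mitochondrially encoded genes. Levels are given below as CPM, counts scaled to the library size after TMM normalisation (trimmed mean of M-values), unless FPKM is named. Each library is called by its label and number. The level of the targeted gene was not lower under the CKO labels, since Piezo1 was 76.4 and 87.9 CPM under the label CKO-Sham against 71.9 and 81.6 CPM under the label fl/fl-Sham, and 56.02 and 64.3 CPM under the label CKO-MI against 53.3 and 64.5 CPM under the label fl/fl-MI. Counts over the whole gene include exons outside the floxed part and RNA of other cell types, so they do not check the deletion itself. Esr1, part of which the transgene carries, was 330 CPM in the library called fl/fl-MI 2 and 704 and 401 CPM under the label CKO-MI, against 5.49 to 8.32 CPM in the other 5 libraries, both labelled CKO-Sham included. Every direction between genotypes below rests on labels that the Esr1 levels go against in 3 libraries. The library labelled fl/fl-MI 2 also stood apart in markers of atrial tissue (Sln, Myl4, Myl7, Bmp10, Mybphl, Kcnj3 and Dkk3), all 7 of which were highest there. Their sum was 9771 CPM in that library and 70.5 to 299 CPM in the other 7. Dkk3 was 104 to 262 CPM in the remaining MI libraries and 11.9 to 38.7 CPM in sham libraries. It made up most of the sum in those MI libraries, so the sum does not order them against sham by atrial tissue. Kcnj3 was 7.96 to 14.8 CPM in those MI libraries and 23.5 to 45.5 CPM in sham libraries. Cardiomyocyte markers summed to 30023 to 33588 CPM in sham libraries, to 17011 CPM in fl/fl-MI 1, to 19666 CPM in CKO-MI 2 and to 33462 and 31371 CPM in the other MI libraries. In fl/fl-MI 2 the sum was mostly Myh6, at 18522 CPM the highest of all libraries. Myl2 (797 CPM) and Myl3 (882 CPM) were lowest there, against 3578 to 4207 CPM and 2908 to 3359 CPM in sham libraries. With MI, 3 of 7 markers were called lower and 2 higher, where 18.3% of all tested genes were lower and 22.0% higher. With 2 libraries against 2, a permutation of a single gene cannot reach a p under 0.05, so the tests below pool the spread of the 4 groups in edgeR's quasi-likelihood fit, with Benjamini-Hochberg adjustment over all 14028 genes tested. The labels do not say that libraries of a group came from separate mice, so p-values measure only the spread between these libraries.

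Nppa and Nppb are neighbours. In the deposited table Nppb (ENSMUSG00000029019) lay on chromosome 4 of GRCm38 from 147985788 to 147987205 on the plus strand and Nppa (ENSMUSG00000041616) from 148000722 to 148002079 on the same strand, 13516 bases downstream. The 250 bases upstream of the RefSeq start of each (GRCm38.p6) are shown because both genes moved in the same direction with MI and are the members with the largest changes. They are chr4:147985650-147985899 for Nppb and chr4:148000472-148000721 for Nppa, both on the plus strand. The RefSeq start of Nppb lies at 147985900, downstream of the start in the deposited table. Capitals mark matches to a GATA-type element, searched as the letters TGATAA, to an MCAT element, searched as the letters GGAATG, and to a TATA box, searched as the letters TATAAA.
Nppb: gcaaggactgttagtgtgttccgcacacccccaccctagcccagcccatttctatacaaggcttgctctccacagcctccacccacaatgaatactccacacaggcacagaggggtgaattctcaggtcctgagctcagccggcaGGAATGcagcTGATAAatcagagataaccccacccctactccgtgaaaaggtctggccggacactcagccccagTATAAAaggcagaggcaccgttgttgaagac
Nppa: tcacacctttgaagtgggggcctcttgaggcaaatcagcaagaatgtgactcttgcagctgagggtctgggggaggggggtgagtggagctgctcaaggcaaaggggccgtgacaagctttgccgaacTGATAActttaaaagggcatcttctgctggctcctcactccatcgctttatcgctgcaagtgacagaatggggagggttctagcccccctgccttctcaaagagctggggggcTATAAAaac

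Both windows held the GATA-type element, 122 to 117 bases before the start in Nppa and 95 to 90 bases in Nppb. Both held the letters TATAAA, 9 to 4 bases before the start in Nppa and 31 to 26 bases in Nppb, so not at the same distance. The MCAT element was matched in the Nppb window 105 to 100 bases before the start and had no match in the Nppa window, and an AP-1 element, searched as the letters TGANTCA, had none in either. All 4 patterns were searched on both strands, and none of the matches in these windows overlapped. Of 32851 RefSeq promoter windows of the same length, 7.94% held the GATA-type element, 12.4% the TATA box, 12.6% the MCAT element and 6.75% the AP-1 element. Among the other 8 members, none of whose windows held the GATA-type element, the TATA box was matched in a window of Nppc and of Furin, and the MCAT and AP-1 elements each in a window of Mme. A match is a run of letters and was not tested for binding.

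With MI, gene-level RNA of both cardiac peptides, of the convertase furin and of the kinase Prkg1 rose. That of the receptors Npr1 and Npr2 fell, while Npr3 and Corin did not pass the test. Npr2 fell on CPM but not on the FPKM scale, where its sign turned. Its full-length coding transcript held a larger share of its counts after MI, as given below. Averaged over both genotypes, 6 of the 8 tested members passed an adjusted p under 0.05, 4 higher and 2 lower, where 40.4% of all tested genes passed, 22.0% higher and 18.3% lower. For the same 6 members the 4 MI and the 4 sham libraries did not overlap in CPM, which held for 40.4% of all genes. The libraries labelled fl/fl gave 5 called members (18.5% of all genes) and those labelled CKO gave 6 (24.7% of all genes), and the difference between these responses did not pass the test for any member.

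**Figure D1:**
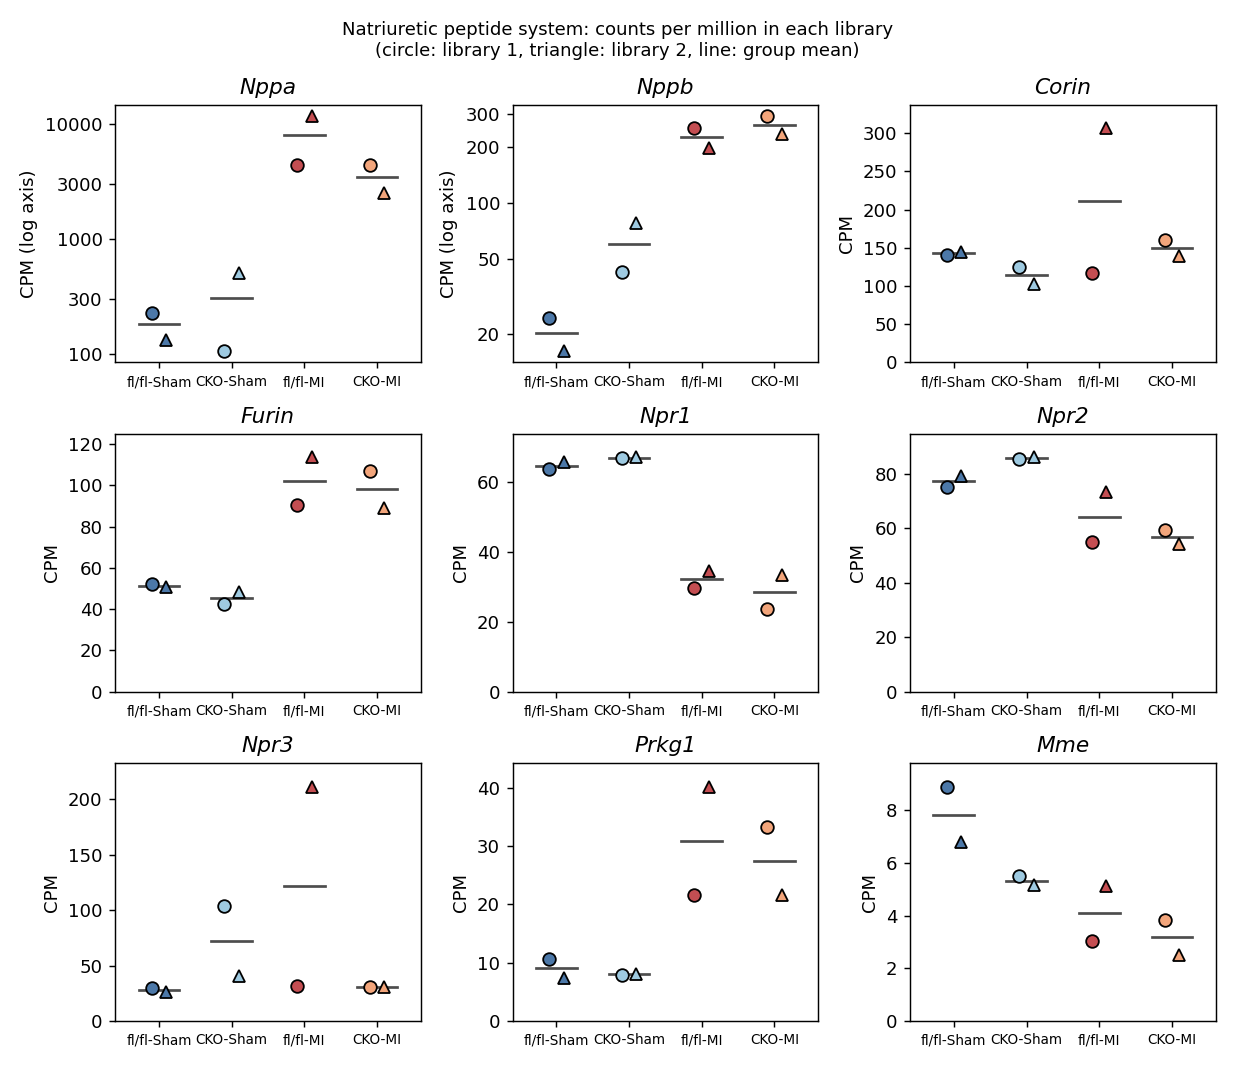
Levels of the 9 members above the counting floor in each library, in CPM on linear axes from 0, or on log axes for Nppa and Nppb. Circles and triangles are the libraries numbered 1 and 2 and lines are group means; all 4 MI libraries lie above all 4 sham libraries for Nppa, Nppb, Furin and Prkg1 and below them for Npr1 and Npr2 (the sign of Npr2 turned on the FPKM scale), and Npr3 and Corin are highest in the library called fl/fl-MI 2.

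Nppa, the precursor of atrial natriuretic peptide, was 227 and 132 CPM under the label fl/fl-Sham and 106 and 501 CPM under the label CKO-Sham. It was 4379 and 11691 CPM under the label fl/fl-MI and 4399 and 2509 CPM under the label CKO-MI. The lowest MI library was thus above the highest sham library, although libraries of a group differed by up to several fold. Averaged over both genotypes the log2 fold change was 4.50 (SE 0.62, adjusted p = 0.0023 in edgeR), or 22.6-fold, and omitting libraries 1 at a time gave 4.06 (without fl/fl-MI 2) to 5.26 (without CKO-Sham 2), each past the threshold. It was 5.48 (SE 0.93, adjusted p = 0.0119) under the labels fl/fl and 3.51 (SE 0.84, adjusted p = 0.0264) under the labels CKO. The libraries with the most Nppa in the MI and sham sets were also those with the most atrial marker RNA in these sets, as the plot beside the summed atrial markers shows. In the library labelled fl/fl-MI 2, Bmp10 was 3816 CPM and Myl4 2797 CPM, against at most 18.7 and 47.8 CPM elsewhere. In the library labelled CKO-Sham 2, Sln, Myl4, Myl7 and Mybphl were 2.41 to 3.51 times the highest of the remaining 6 libraries, at 4.34 to 47.8 CPM. The other atrial markers were below the highest of those libraries, Bmp10 at 0.844 times, Kcnj3 at 0.517 times and Dkk3 at 0.148 times. When fl/fl-MI 2 was left out, the rise of Nppa under the labels fl/fl was 4.61 (adjusted p = 0.0063). Without the library labelled CKO-Sham 2, that between the libraries labelled CKO was 5.03 (adjusted p = 0.0447). It missed the threshold without CKO-Sham 1 (2.78, adjusted p = 0.117), without CKO-MI 1 (3.03, 0.098) or CKO-MI 2 (3.86, 0.062) and without either fl/fl-Sham library. The part of atrial tissue in these differences was not tested. Gm13054, an antisense gene that overlaps Nppa, held 12 to 10544 counts, and the strand setting of the counting is not given in the sources used here, so reads of the pair may not be told apart.

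Nppb, the precursor of B-type natriuretic peptide, was 24.2 and 16.2 CPM under the label fl/fl-Sham and 42.9 and 78.1 CPM under the label CKO-Sham. After MI it was 252 and 196 CPM under the label fl/fl-MI and 290 and 234 CPM under the label CKO-MI. The 4 MI libraries had a narrower range than for Nppa, and each was above every sham library. The rise averaged over both genotypes was 2.79 on the log2 scale (SE 0.25, adjusted p = 0.00069), or 6.94-fold. It was 3.47 (SE 0.36, adjusted p = 0.0040) under the labels fl/fl and 2.12 (SE 0.34, adjusted p = 0.0084) under the labels CKO. Omitting libraries 1 at a time gave 2.61 to 3.04 for both genotypes, 3.21 to 3.79 under the labels fl/fl and 1.75 to 2.61 under the labels CKO. Its call was lost under the labels fl/fl without fl/fl-Sham 2, and under the labels CKO without CKO-Sham 1. The library labelled fl/fl-MI 2, with the most atrial marker RNA and the most Nppa, had the least Nppb of the 4 MI libraries.

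Nppc, the precursor of C-type natriuretic peptide, held 0 to 8 counts per library, at most 2 read pairs. This is under the floor of 3 read pairs (0.136 to 0.163 CPM), so no fold change is given.

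Per gene length, Nppa was the member with the highest level in both conditions, at a mean of 221 FPKM in the 4 sham libraries (rank 87 of all genes) and 7623 FPKM in the 4 MI libraries (rank 18). Nppb was the next, at 41.0 FPKM in sham (rank 469) and 369 FPKM in MI (rank 72). In the sham libraries the mean FPKM then went down from Corin (19.0) through Npr2 (14.0), Npr1 (11.0), Npr3 (4.26), Furin (4.20), Prkg1 (0.614) and Mme (0.453) to Nppc (0.0523). Neighbours in this order overlapped for Nppb and Corin, for Npr3 and Furin and for Prkg1 and Mme. For example, Npr3 ranged from 2.27 to 8.94 FPKM and Furin from 3.74 to 4.56 FPKM. In MI libraries the order had Furin (12.8 FPKM) above Npr3 (9.15 FPKM) and Npr1 (7.54 FPKM), with Npr3 between 3.59 and 24.6 FPKM across libraries and thus not apart from either neighbour. Without scaling to gene length, Nppa and Nppb took 0.326% to 1.31% and 0.0221% to 0.0331% of all counts in MI libraries. In sham libraries they took 0.00887% to 0.0407% and 0.00139% to 0.00635% of all counts.

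The levels of both cardiac peptides were also compared within each library, where their ratio did not pass an adjusted p under 0.05. Nppa was 8.47 and 7.37 times Nppb (ratio of FPKM values) under the label fl/fl-Sham and 2.23 and 5.80 times under the label CKO-Sham. It was 15.7 and 53.8 times Nppb under the label fl/fl-MI and 13.7 and 9.68 times under the label CKO-MI, above every sham library. The log2 ratio of Nppb to Nppa was -2.41 ± 0.87 in sham and -4.19 ± 1.08 in MI libraries (SD, n = 4 each), a difference of -1.78 (exact two-sided permutation p = 0.0286, the smallest that 70 splits allow, and 0.0857 when adjusted over the 3 ratios computed). The ratio in the library called fl/fl-MI 2 was the lowest of all, and without that library the difference was -1.26 (exact permutation p = 0.0571).

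**Figure D2:**
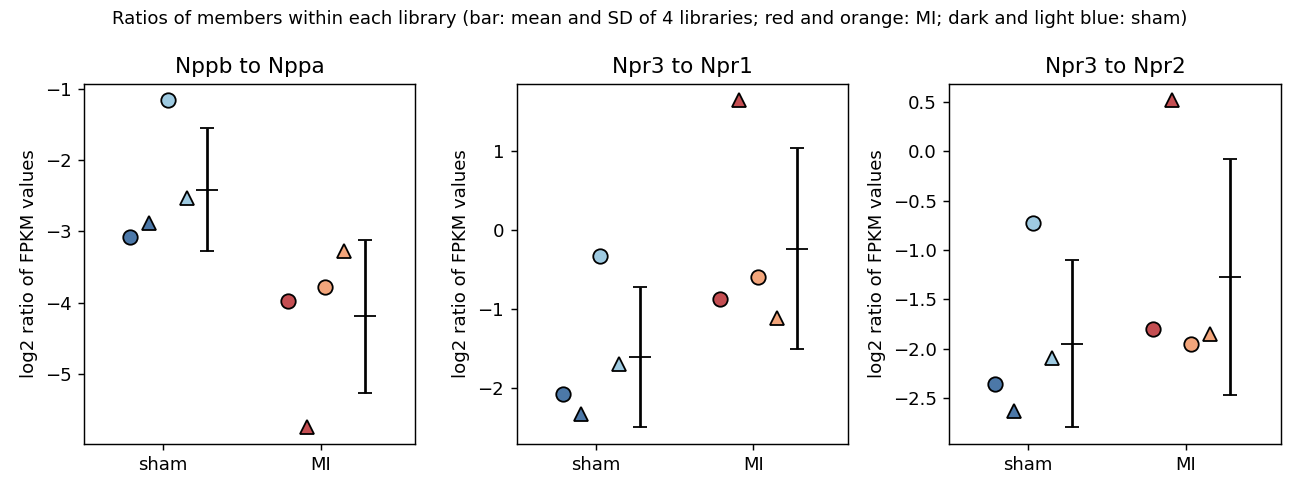
Log2 ratios of FPKM values within each library, in 4 sham and 4 MI libraries, with the mean and SD of each set as bars; circles and triangles are the libraries numbered 1 and 2. The ratio of Nppb to Nppa is lower in every MI library than in every sham library, whereas the sham and MI libraries overlap for Npr3 to Npr1 and Npr3 to Npr2.

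Of the proteases that cut the precursors, Furin, a convertase of the secretory pathway, rose with MI. It was 52.0 and 50.6 CPM under the label fl/fl-Sham, 42.6 and 48.2 CPM under the label CKO-Sham, 90.7 and 114 CPM under the label fl/fl-MI and 107 and 89.2 CPM under the label CKO-MI. The sham and MI sets were apart by more than the spread within either. The log2 fold change averaged over both genotypes was 1.05 (SE 0.12, adjusted p = 0.0012), a 2.08-fold rise. Corin, the serine protease of the cardiomyocyte surface that cleaves the Nppa precursor, was 141 and 145 CPM under the label fl/fl-Sham and 125 and 103 CPM under the label CKO-Sham. It was 117 and 307 CPM under the label fl/fl-MI and 160 and 139 CPM under the label CKO-MI, so that sham and MI libraries overlapped. Its log2 difference averaged over both genotypes was 0.48 (SE 0.28, adjusted p = 0.208) and was 0.05 (adjusted p = 0.721) when fl/fl-MI 2 was left out. Without fl/fl-MI 1 it passed, at 0.73 (adjusted p = 0.0021, with 48.5% of all genes called) for both genotypes and at 1.08 (adjusted p = 0.0049, with 29.8% of all genes called) under the labels fl/fl. On FPKM, whose scale moved the median of all genes by 0.41 between sham and MI, Corin passed the test at 0.93 (limma on log2(FPKM + 1), adjusted p = 0.0134, with 56.1% of all genes called).

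Among the receptors, Npr1, the guanylyl cyclase that binds both cardiac peptides, fell with MI. It was 63.6 and 65.8 CPM under the label fl/fl-Sham and 66.8 and 67.1 CPM under the label CKO-Sham, against 29.7 and 34.6 CPM under the label fl/fl-MI and 23.8 and 33.4 CPM under the label CKO-MI. All sham libraries were close to each other and well above all MI libraries. The fall averaged over both genotypes was -1.12 on the log2 scale (SE 0.13, adjusted p = 0.0013), 2.17-fold lower. Npr2, the receptor of C-type natriuretic peptide, was 75.4 and 79.2 CPM under the label fl/fl-Sham, 85.6 and 86.2 CPM under the label CKO-Sham, 55.0 and 73.5 CPM under the label fl/fl-MI and 59.3 and 54.3 CPM under the label CKO-MI. Its log2 change averaged over both genotypes was -0.43 (SE 0.12, adjusted p = 0.0245). That call was lost with 5 of the 8 libraries left out 1 at a time (adjusted p of 0.071 to 0.090; both of fl/fl-Sham, both of CKO-Sham and CKO-MI 2) and without a minimum level (adjusted p = 0.078). The direction also depended on the scaling, being 0.12 (adjusted p = 0.348) on log2(FPKM + 1), below the shift of 0.41 of the median gene on that scale. Npr1 kept its direction there at -0.51 (adjusted p = 0.0223).

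Markers of endothelial cells, which express Npr1, summed to 1353 to 1578 CPM in sham and 493 to 843 CPM in MI libraries, and 4 of the 5 were lower with MI (median log2 change -1.48). Pericyte markers summed to 1212 to 1447 CPM in sham and 361 to 725 CPM in MI libraries, with 3 of 4 lower. Rgs5 made up most of that sum, while Pdgfrb was 106 to 121 CPM in sham and 41.5 to 138 CPM in MI libraries. Smooth muscle markers summed to 153 to 299 CPM in sham and 159 to 259 CPM in MI libraries, with 1 of 4 lower. Fibroblast markers went the other way, from 1254 to 1368 CPM in sham to 1897 to 5433 CPM in MI libraries, with all 6 higher. Macrophage markers summed to 345 to 369 CPM in sham and 355 to 897 CPM in MI libraries, with 3 of 5 higher. Of all tested genes, 22.0% were called higher and 18.3% lower with MI. In bulk tissue, fewer cells of a type and less RNA per cell cannot be told apart, and the part of cell composition in any change given here was not tested.

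Npr3, the clearance receptor, was 29.7 and 25.7 CPM under the label fl/fl-Sham and 104 and 40.6 CPM under the label CKO-Sham. It was 31.7 and 212 CPM under the label fl/fl-MI and 30.9 and 30.3 CPM under the label CKO-MI. Of the 8 libraries, 6 lay between 25.7 and 40.6 CPM, and the remaining 2 were those labelled CKO-Sham 1 and fl/fl-MI 2. The library labelled fl/fl-MI 2 had the most atrial marker RNA. CKO-Sham 1 had the lowest sum of atrial markers, but not the lowest level of each. Kcnj3 was 26.3 CPM there, against 7.96 to 14.8 CPM in fl/fl-MI 1 and under the label CKO-MI. Averaged over both genotypes the log2 difference between MI and sham was 0.45 (SE 0.55, adjusted p = 0.55), and it turned to -0.52 (adjusted p = 0.178) when fl/fl-MI 2 was left out. Under the labels fl/fl it was 2.13 (SE 0.81, adjusted p = 0.108) and under the labels CKO -1.24 (SE 0.79, adjusted p = 0.284). When fl/fl-MI 2 was left out, the value for fl/fl was 0.20 (adjusted p = 0.771). Without the library labelled CKO-Sham 1, the value for CKO was -0.41 (adjusted p = 0.816). Other omissions gave calls. Without fl/fl-MI 1, Npr3 was 2.91 (adjusted p = 0.0038) under the labels fl/fl and 0.83 (adjusted p = 0.0495) for both genotypes. Under the labels CKO it was -1.25 (adjusted p = 0.0337, with 41.0% of all genes called) without fl/fl-MI 1 and -1.24 (adjusted p = 0.0326, with 41.3% called) without fl/fl-MI 2. The log2 ratio of Npr3 to Npr1 was -1.61 ± 0.89 in sham and -0.24 ± 1.27 in MI libraries (SD, n = 4 each, exact two-sided permutation p = 0.114, adjusted 0.171), and that of Npr3 to Npr2 was -1.95 ± 0.85 in sham and -1.27 ± 1.19 in MI libraries (exact p = 0.429, adjusted 0.429). The library labelled fl/fl-MI 2 was the only one with more Npr3 than Npr1 per gene length, at 3.12 times.

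**Figure D3:**
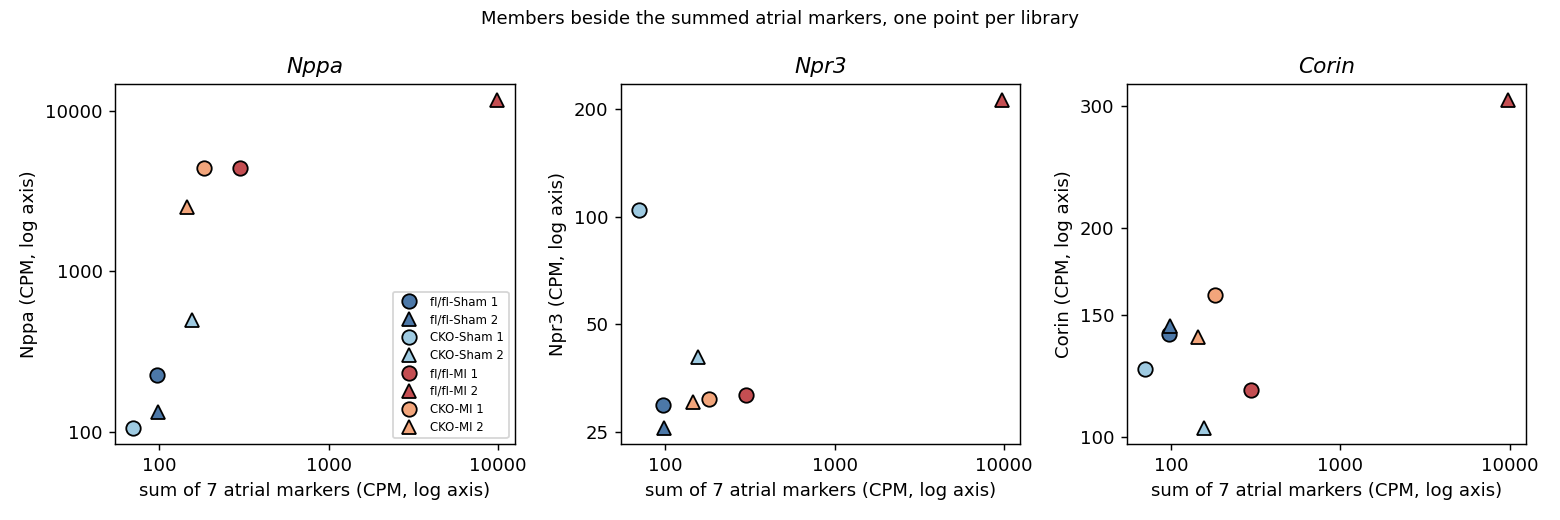
Nppa, Npr3 and Corin (CPM, log axes) against the sum of 7 atrial markers (CPM, log axis), 1 point per library. The library labelled fl/fl-MI 2 lies at 9771 CPM of atrial markers with the most Nppa, Npr3 and Corin, while the library labelled CKO-Sham 1 has the lowest sum and the second highest Npr3. In fl/fl-MI 1, CKO-MI 1 and CKO-MI 2, Dkk3 alone is 262, 136 and 104 CPM of sums of 299, 183 and 146 CPM. The sum therefore does not order these libraries against sham by atrial tissue.

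Prkg1, the cyclic GMP-dependent protein kinase downstream of both cyclase receptors, was 10.7 and 7.43 CPM under the label fl/fl-Sham and 7.88 and 8.10 CPM under the label CKO-Sham. It was 21.5 and 40.2 CPM under the label fl/fl-MI and 33.3 and 21.6 CPM under the label CKO-MI, higher than in any sham library. The rise averaged over both genotypes was 1.78 on the log2 scale (SE 0.25, adjusted p = 0.0025), or 3.42-fold, and was nearly the same under the labels fl/fl (1.77) and CKO (1.78). Cstf2t overlaps the span of Prkg1 on the other strand and held 1087 to 2432 counts, where Prkg1 held 472 to 629 counts in sham libraries. Only spans were compared, not exons, so whether the pair shares reads was not tested. Mme, the peptidase neprilysin, was 8.89 and 6.77 CPM under the label fl/fl-Sham, 5.49 and 5.14 CPM under the label CKO-Sham, 3.04 and 5.12 CPM under the label fl/fl-MI and 3.85 and 2.50 CPM under the label CKO-MI. The highest MI library was just under the lowest sham library. Fitted without a minimum level, its log2 change averaged over both genotypes was -0.78 (SE 0.24, adjusted p = 0.043, with 17.1% of 33249 genes called).

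**Figure D4:**
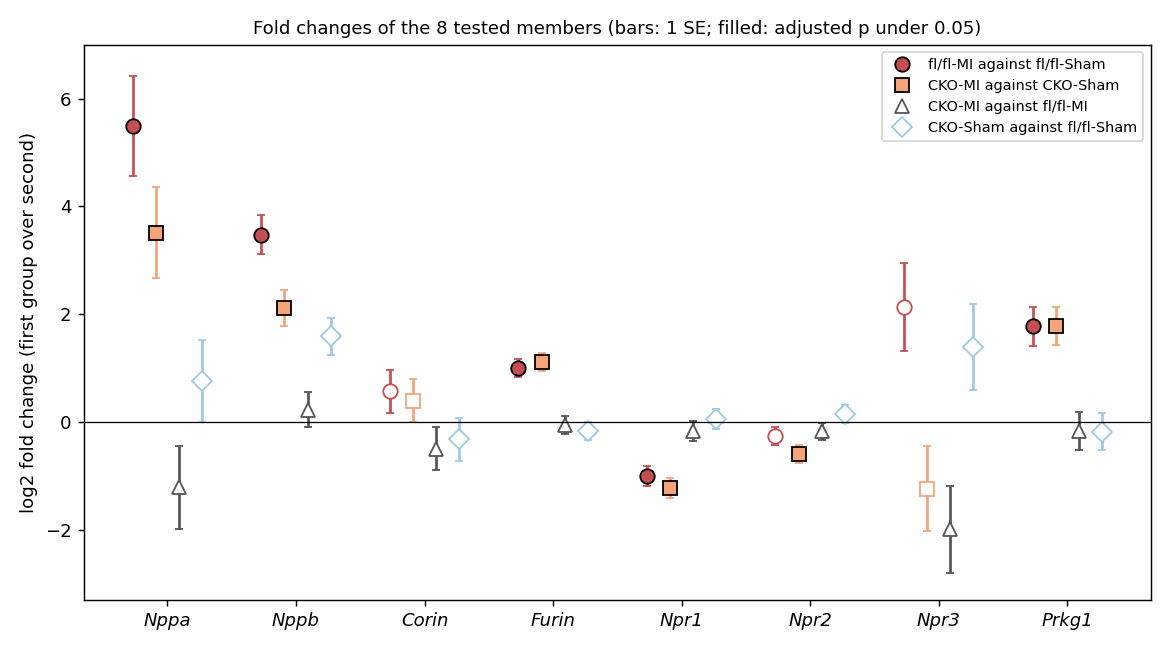
Log2 fold changes of the 8 tested members in 4 comparisons (y axis, first group over second), with bars of 1 SE and filled symbols for an adjusted p under 0.05. Filled symbols occur only in the comparisons of MI with sham, and the longest bars are those of Nppa and Npr3.

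Between genotypes within a condition, no member (0 of 8) passed an adjusted p under 0.05 in edgeR. For the labels CKO-MI against fl/fl-MI the log2 differences were -1.22 (SE 0.77) for Nppa (-0.34 without fl/fl-MI 2), 0.23 (SE 0.33) for Nppb, -0.17 (SE 0.18) for Npr1, -0.18 (SE 0.17) for Npr2, -0.50 (SE 0.40) for Corin, -0.06 (SE 0.17) for Furin and -0.17 (SE 0.34) for Prkg1. None of these reached an unadjusted p under 0.05, and in each the libraries of the groups overlapped. Npr3 was lower by -1.99 (SE 0.81, unadjusted p = 0.043, adjusted p = 0.58), 1 of 450 genes (3.21%) at an unadjusted p under 0.05 with at least 2-fold change. When fl/fl-MI 2 was left out this difference was -0.05 (adjusted p = 0.98). When fl/fl-MI 1 was left out, Npr3 (-2.77, adjusted p = 0.0113) and Corin (-1.01, adjusted p = 0.0148) passed, where a lone fl/fl-MI library is taken to have the spread of the remaining groups and 11.9% of all genes passed. With all 8 libraries 0.0% of all genes passed the adjusted threshold in edgeR, and DESeq2 called 1.48% of all genes and none (0) of the members.

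For the labels CKO-Sham against fl/fl-Sham, Nppb was higher in both, by 1.58 on the log2 scale (SE 0.33, unadjusted p = 0.0021, adjusted p = 0.9997), or 3.00-fold. It was 1 of 125 genes (0.891%) at an unadjusted p under 0.05 with at least 2-fold change, and 1 gene (0.00713%) passed the adjusted threshold. DESeq2 called Nppb here (adjusted p = 0.00296), with 0.242% of all genes called. Nppa differed by 0.76 (SE 0.77, adjusted p = 0.9997), with the sign turned to -0.76 without the library labelled CKO-Sham 2. Npr3 differed by 1.38 (SE 0.80, adjusted p = 0.9997) and by 0.55 without CKO-Sham 1, and for the other 5 members the differences were between -0.32 and 0.15. For 6 of the 8 members the libraries of the groups did not overlap, which held for 47.0% of all genes. Both libraries labelled CKO-Sham lacked the Esr1 signal that those labelled CKO-MI had.

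The response to MI was compared between the genotypes as an interaction. It was -1.36 for Nppb (SE 0.46, unadjusted p = 0.0217, adjusted p = 0.57). It was -3.38 for Npr3 (unadjusted p = 0.0205, adjusted p = 0.57) and -1.98 for Nppa (SE 1.09, adjusted p = 0.65). These 2, Nppb and Npr3, were among 575 genes (4.1%) at an unadjusted p under 0.05 with at least 2-fold change, no gene (0) passed the adjusted threshold in edgeR, and when libraries were omitted 1 at a time Npr3 passed it once, without fl/fl-MI 1 (-4.16, adjusted p = 0.0131, with 5.35% of all genes called). Without fl/fl-MI 2 the value for Npr3 was -1.44 (adjusted p = 0.308). That for Nppa was -0.46 without CKO-Sham 2.

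The deposited transcript counts divide each gene among annotated transcripts, by a method not given in the sources used here. Nppa, Nppb and Nppc had 1 transcript each, and the leading transcript held 97.6% of the counts of Npr1, 97.2% of those of Npr3 and 99.0% of those of Prkg1. Npr2, Corin and Furin were less uniform and are described without a test, since they were picked after their values were seen. The full-length Npr2 transcript ENSMUST00000030191, of 22 exons, held 65.7% and 55.6% of the Npr2 counts under the label fl/fl-Sham and 40.1% and 65.2% under the label CKO-Sham. It held 83.2% and 90.8% under the label fl/fl-MI and 75.5% and 87.1% under the label CKO-MI, more than in any sham library. Its counts, not scaled to library size, were 2532 to 3430 in sham and 3805 to 5559 in MI libraries. The fall of Npr2 in CPM was tested for the whole gene, not for this transcript. The noncoding transcript ENSMUST00000123883, which begins within the gene and keeps 1 intron, made up much of the rest, 22.4% to 37.7% in sham and 8.56% to 17.5% in MI libraries. Its unscaled counts were 1127 to 2381 in sham and 453 to 881 in MI libraries. ENSMUST00000107874, of 21 exons, joins exons 19 and 20 by keeping the intron between them (chromosome 4 from 43650149 to 43650492 as 1 exon) and held 0% to 21.4%.

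For Corin, the transcripts ENSMUST00000005352 and ENSMUST00000167460 differ in their first exon, at 72503882 to 72504208 and 72504371 to 72504473 of chromosome 5, and so in the start of the coding sequence. The first held 95.7% to 98.0% of the counts in the 4 MI libraries. In sham libraries it held 67.7% and 91.0% under the label fl/fl-Sham and 48.5% and 97.4% under the label CKO-Sham, so the sham libraries differed widely within each group. For Furin, the retained-intron transcript ENSMUST00000146771 held 13.2% and 9.43% under the label fl/fl-Sham and 14.3% and 20.4% under the label CKO-Sham, against 2.33% and 7.54% under the label fl/fl-MI and 4.60% and 4.22% under the label CKO-MI. All 4 MI libraries were under all 4 sham libraries.

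**Figure D5:**
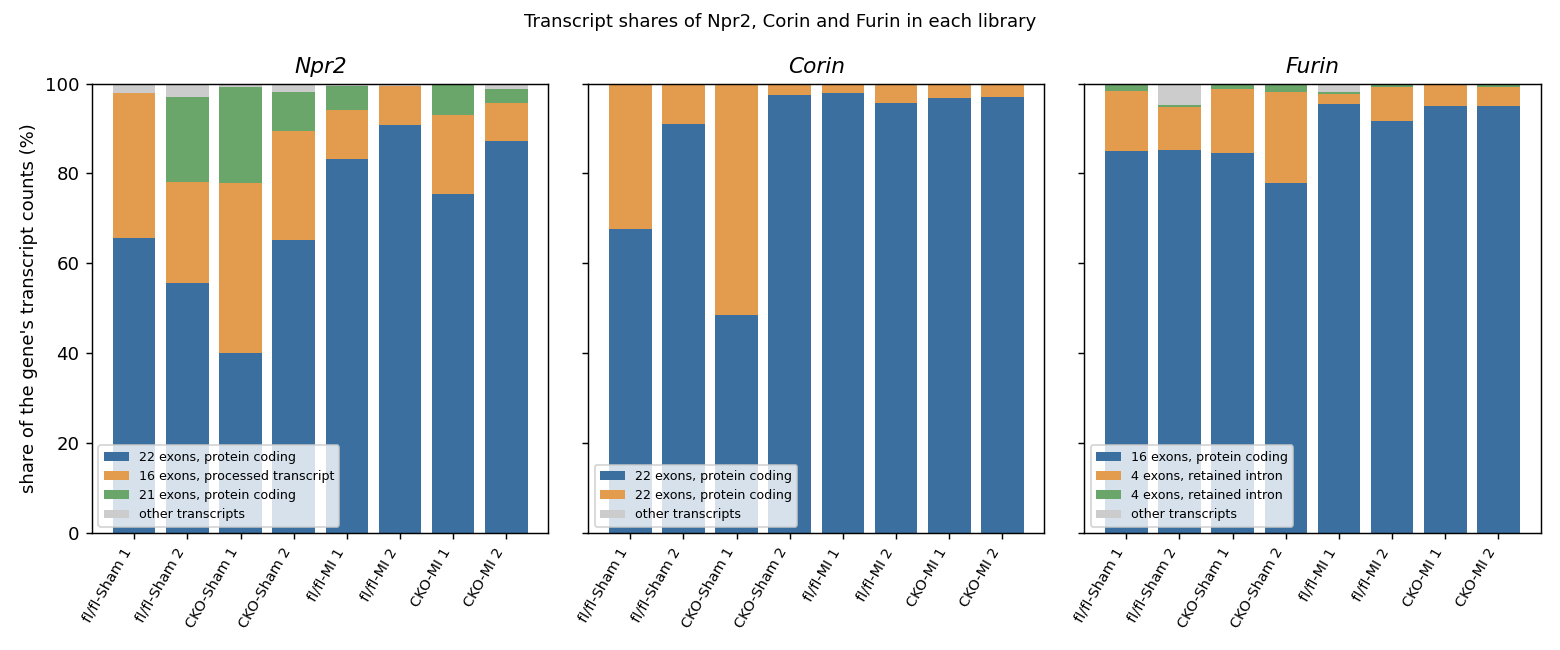
Share of the transcript counts of Npr2, Corin and Furin (y axis, percent) held by the leading transcripts in each library (x axis). The main coding transcript of Npr2 and of Furin takes a larger share in every MI library than in every sham library, and that of Corin ranges from 48.5% to 97.4% among sham libraries.

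Genes that make, degrade or respond to cyclic GMP or process peptides, outside the 10 members, were followed as a list of 38 symbols, of which 36 were in the table and 27 were tested. Averaged over both genotypes, 6 were higher and 5 lower with MI, 40.7% of those tested against 40.4% of all genes, with a median log2 change of -0.06 against 0.03 for all genes tested. Among the phosphodiesterases, which break down cyclic nucleotides, Pde2a fell by 1.62 on the log2 scale (adjusted p = 0.0011) from 134 to 190 CPM in sham to 40.7 to 64.7 CPM in MI libraries. Pde1a (1.32, adjusted p = 0.0290), Pde1c (0.86, adjusted p = 0.0187) and Pde3b (0.74, adjusted p = 0.0251) rose. The nitric oxide synthases Nos2 (-1.86, adjusted p = 0.00094) and Nos3 (-1.12, adjusted p = 0.0159), whose product activates soluble guanylyl cyclase, were lower. Of the other named genes, the kinase target Ppp1r12b (1.43, adjusted p = 0.0010) and the endothelin-converting enzyme Ece2 (2.41, adjusted p = 0.0267) were higher, and the kallikrein Klk1 (-0.71, adjusted p = 0.0214) and the guanylin precursor Guca2a (-0.76, adjusted p = 0.0356) were lower. On log2(FPKM + 1) these 10 genes kept their signs, with Guca2a at -0.17 and Klk1 at -0.13 (adjusted p = 0.470 and 0.513). The soluble guanylyl cyclase subunits Gucy1a1 (0.26, adjusted p = 0.16) and Gucy1b1 (-0.17, adjusted p = 0.313) and the cyclic GMP-specific phosphodiesterase Pde5a (0.04, adjusted p = 0.876) did not pass. On log2(FPKM + 1) Gucy1a1 passed (0.68, adjusted p = 0.0095), and Gucy1b1 turned to 0.35 (adjusted p = 0.084) and Pde5a was 0.27 (adjusted p = 0.114).

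Of 5 genes known to rise with wall stress, 4 were higher with MI averaged over both genotypes, where 22.0% of all tested genes were. The median log2 change of the 5 was 2.92 against 0.03 for all genes. Ankrd1 rose by 3.43 (adjusted p = 0.00070), Ccn2 by 3.56 (adjusted p = 0.00056), Xirp2 by 2.92 (adjusted p = 0.0175) and Myh7 by 1.72 (adjusted p = 0.0419). Acta1 was at -0.21 (adjusted p = 0.838). In the library labelled fl/fl-MI 2, which had the most Nppa, Myh7 (604 CPM), Xirp2 (240 CPM) and Acta1 (18.7 CPM) were within or under the range of the sham libraries, while Ankrd1 (2464 CPM) and Ccn2 (849 CPM) were not. Nppb was 196 CPM there, above every sham library.

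The genes with patterns most like Nppa over the 8 libraries (Pearson r of log2(CPM + 1), given as a description of libraries that share a condition) were Map1b (0.991), Cul1 (0.990), Akap13 (0.984), Wdr44 (0.984) and Uso1 (0.980). Those most like Nppb were Scyl2 (0.986), Sorl1 (0.983), Gm12430 (0.981), Gm6793 (0.981) and Nln (0.979), and those most like Npr3 were Mdm1 (0.972), Wif1 (0.968), Gm8399 (0.964), Megf6 (0.956) and Enpp6 (0.953). Among the members themselves, r was highest between Furin and Prkg1 (0.982), Nppa and Furin (0.963) and Nppa and Prkg1 (0.952), and lowest between Npr1 and Furin (-0.949). Npr3 had no r above 0.655 with any tested member.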

How the data were processed

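Poly(A) RNA of 8 mouse myocardium libraries was sequenced as paired-end reads. Per the labels, reads were trimmed with cutadapt 1.9 and checked with FastQC, and the aligner, counter and annotation are not given in the sources used here. Gene coordinates equalled GENCODE M21 (GRCm38) for 90.8% of genes. The authors deposited whole-number counts per gene and transcript, without normalization, and FPKM values, which scale counts to length and library size. Counts were tested with edgeR 4.0.16 (R 4.3.3, TMM, quasi-likelihood, 1 mean per group, all 8 libraries, mean FPKM of at least 0.5). limma 3.58.1 on log2(FPKM + 1) and log2(FPKM + 0.1), DESeq2 1.42.0, RLE, other filters, a replicate block, counts divided by 4, omission of mitochondrial genes and of each library were alternatives. Fits were tested on simulated data. Ratios were tested by exact permutation in Python 3.11.15 with NumPy 2.4.6. Promoter windows came from RefSeq (GRCm38.p6), where all 10 members were matched. All members were named in every comparison; of the cyclic GMP list, those passing with the largest changes, up to 5 in each direction, were named, beside a few that did not pass and were added after their values were seen. The members and gene lists were chosen with earlier results of these data known. Neutrophil (5.10 to 11.8 CPM), lymphocyte (2.97 to 5.75 CPM), macrophage (345 to 897 CPM) and smooth muscle markers (153 to 299 CPM) were also summed. Floors cover counting error only.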

Additional observations from a re-analysis of the deposited data

How the results depend on the processing

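With 2 libraries per group, the spread between libraries limited the calls. Under the labels fl/fl, 5 members were called (18.5% of all genes), 1 (Nppb) when only the 4 libraries compared were fitted (1.42% of all genes), and 0 to 7 with each library left out in turn (0 without fl/fl-Sham 2, with 0.848% of all genes, 1 without fl/fl-Sham 1, with 0.898%, and 7 without fl/fl-MI 1, with 29.8%). Under the labels CKO, 6 were called, and 0 to 7 with each library left out (0 without CKO-Sham 1, with 0.178% of all genes, and 3 without CKO-MI 1, with 8.74%). Averaged over both genotypes, 6 were called, and 5 to 8 with each library left out (23.1% to 50.7% of all genes), Npr2 being lost in 5 of these 8 fits. CKO-MI against fl/fl-MI had 0 calls, and 0 to 2 with each library left out. CKO-Sham against fl/fl-Sham had 0, and 1 in DESeq2. The interaction had 0, and 0 to 1 with each library left out. The cause of these differences was not tested. On log2(FPKM + 1) and log2(FPKM + 0.1), Npr2 was at 0.27 and 0.28 under the labels fl/fl and at 0.12 in both for the mean, and of all genes called for the mean 7027 were higher and 837 lower on log2(FPKM + 1), against 3091 and 2571 in edgeR.

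2 alternatives were chosen after seeing the data. When genotype labels were not used, the same 6 members were called with MI, where 41.7% of all genes were called. Without the 3 libraries whose Esr1 level goes against the label (fl/fl-MI 2 and both CKO-Sham), a lone fl/fl-MI library remained. Corin was then at -0.29 under the labels fl/fl. In CKO-MI against fl/fl-MI, Corin was then at 0.36, Npr2 at 0.045, Furin at 0.11 and Prkg1 at 0.35. With each library left out in turn, signs turned for Corin under the labels fl/fl (-0.29 to 1.08) and for Npr3 in the mean (-0.52 to 0.86). In CKO-MI against fl/fl-MI they turned for Corin (-1.01 to 0.36), Npr1 (-0.40 to 0.066), Npr2 (-0.36 to 0.045), Furin (-0.19 to 0.11) and Prkg1 (-0.53 to 0.35), and in CKO-Sham against fl/fl-Sham for Nppa (-0.76 to 1.48) and Prkg1 (-0.42 to 0.10). The log2 ratio of Nppb to Nppa ranged from -2.08 to -1.26 over these, with an exact permutation p of 0.0286 to 0.0571.

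Replicate numbers were not used as pairs, since deviations of same-numbered libraries correlated between -0.21 and 0.06. With the number as a replicate block, 5 members were called under the labels fl/fl and 5 under the labels CKO (Npr2 lost). For the mean 6 members were called, and between genotypes and in the interaction 0. Of all 14028 genes tested, 1689 were called under the labels fl/fl, 2677 under the labels CKO and 5085 for the mean in that fit. Permuted within replicate numbers, the ratio difference of -1.78 had an exact p of 0.0556.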
